A study of Mus musculus with 6 samples.

Results

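Histone methyltransferases and demethylases write and erase methyl groups on lysines and arginines of histones. They are represented here by 51 genes of the 56832 gene names in the count tables, 33 coding for writers or subunits of a writer complex and 18 for erasers. They were chosen by symbol and grouped by the residue they act on, and all 51 were among the 12488 genes that passed the filter on low counts. Polyadenylated RNA was sequenced from cells that the labels name as monocytes of mouse peripheral blood, in 6 libraries. The 3 thrombocytopenic libraries came from mice of the genotype PF4cre-iDTR that were given diphtheria toxin. In this genotype Cre recombinase, driven by the promoter of the platelet factor 4 gene that is active in megakaryocytes, permits expression of a receptor for the toxin. The 3 control libraries came from wild-type mice, and the labels name diphtheria toxin as their treatment too. Genotype and platelet state therefore cannot be told apart. The sources used here give no age, strain or time after toxin.

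The libraries held 24842319 to 37552029 counts, of which the 51 genes took 0.367% to 0.390%. No label states whether each library is 1 mouse, so p-values rest on the variation among these 6 libraries, which could be technical. Markers of monocytes and macrophages were abundant and summed to 21138 to 21329 CPM in thrombocytopenic and 18721 to 19143 CPM in control libraries, with Lyz2, Csf1r and Adgre1 among them. Of the 12, 6 were higher and 5 lower; Cx3cr1, a marker of patrolling monocytes, was at 11.4 ± 0.373 CPM in thrombocytopenic and 52.2 ± 1.10 CPM in control libraries (SD, n = 3). Cd3e, Cd3d, Cd3g, Nkg7 and Ncr1, which define T and NK cells, had no count in any library, and the 12 T and NK cell markers summed to 0.811 to 0.991 CPM in thrombocytopenic and 1.12 to 1.88 CPM in control libraries. B cell markers summed to 14.3 to 16.6 CPM in thrombocytopenic and 16.1 to 17.95 CPM in control libraries. Among 3 tested B cell markers 1 was higher and 1 lower, with log2 fold changes from -2.19 to 0.30. Only 2 T and NK cell markers were tested, and 1 was lower, with log2 fold changes from -1.54 to -0.23. Markers of platelets and megakaryocytes summed to 1221 to 1293 CPM in thrombocytopenic and 1007 to 1053 CPM in control libraries. Nearly all of that sum was Pf4 and Ppbp, which were higher, while the other 3 of 5 tested, Itga2b, Gp9 and Nrgn, were lower and scarce, and the median log2 fold change was -1.27. Neutrophil markers summed to 489.9 to 495 CPM in thrombocytopenic and 373 to 389.6 CPM in control libraries, mostly Mmp8 and Csf3r, which were higher. Of the 7 tested, 1 was lower and 5 had a negative fold change, with a median of -0.16. Erythroid markers summed to 0 to 0.0559 CPM in thrombocytopenic and 1.89 to 2.41 CPM in control libraries. Dendritic cell markers summed to 233 to 241 CPM in thrombocytopenic and 314 to 329 CPM in control libraries, and 6 of 7 tested were lower. Basophil and mast cell markers summed to 0.348 to 0.637 CPM in thrombocytopenic and 7.27 to 8.83 CPM in control libraries, and all 5 tested were lower. Blood progenitor markers summed to 7.52 to 9.08 CPM in thrombocytopenic and 10.1 to 12.5 CPM in control libraries. Of the 5 tested, 1 was higher and 3 lower. The part of any of these differences in the results below was not tested. In RNA of bulk cells, fewer cells of a type and less RNA per cell cannot be told apart.

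Methyl groups on histones are added by SET-domain enzymes, by Dot1l, which lacks a SET domain, and by arginine methyltransferases, all with S-adenosylmethionine as donor. They are removed by the flavin-dependent KDM1 enzymes and by JmjC enzymes that need iron and 2-oxoglutarate. Methylation of H3K4, H3K36 and H3K79 is typical of active genes, while methylation of H3K9, H3K27 and H4K20 is typical of silent chromatin, with monomethylated H4K20 as an exception. In mouse macrophages inflammatory stimuli induce the H3K27 demethylase gene Kdm6b and interferon induces Setdb2.

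The question was whether RNA for these enzymes differed between monocytes of mice with and without thrombocytopenia. Most of the 51 genes differed little, and 29 had a log2 fold change between -0.1 and 0.1. In thrombocytopenic against control libraries 13 genes were higher, 6 were lower and 32 did not pass. The call is edgeR's quasi-likelihood test with a Benjamini-Hochberg adjusted p under 0.05 over all genes tested. These 19 genes are 37.3% of the 51, against 45.1% of all genes tested (22.4% higher and 22.7% lower). The H3K36 methyltransferase gene Nsd2 had the largest change, 1.52-fold lower, and was the only member past 1.5-fold, against 9.63% of all genes tested (2.8% higher and 6.83% lower). The other 18 called members changed by 1.07-fold to 1.28-fold. The median log2 fold change of the 51 was 0.020, against -0.00079 over all genes tested, and the median size without sign was 0.088, against 0.15. For 24 members the 3 libraries of each group did not overlap, 14 with the thrombocytopenic libraries above and 10 below, which is 47.1% of the 51, against 51.3% of all genes tested (25.2% above and 26.1% below). With upper quartile scaling, which moved the median of all genes by -0.024 on the log2 scale, 11 members were higher and 11 lower in place of 13 and 6.

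**Figure D1:**
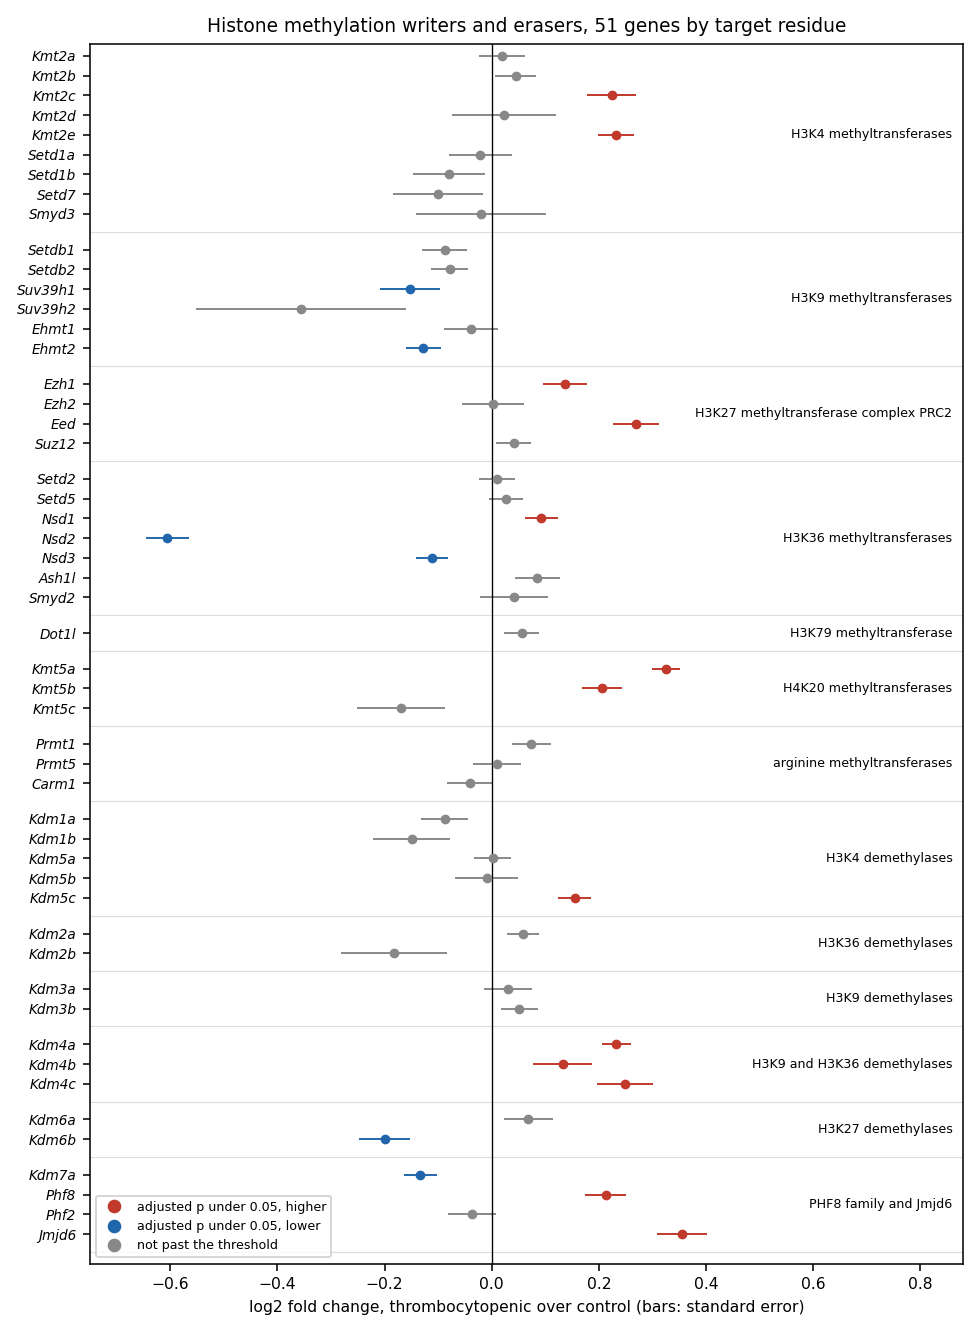
Log2 fold change (thrombocytopenic over control, x axis) of the 51 genes with its standard error (bars), grouped by target residue; color gives the result of edgeR's test. Nsd2 lies farthest from 0 at -0.61, and the other called genes lie between -0.20 and 0.36.

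Kmt2c and Kmt2e were the members of the H3K4 group of 9 that rose, and none fell. The called share was 22.2%, against 45.1% of all genes tested (22.4% higher and 22.7% lower). Kmt2c, a catalytic subunit of the complexes that monomethylate H3K4 at enhancers, had 50.2, 55.4 and 57.7 CPM in the thrombocytopenic libraries, against 44.4, 48.3 and 46.7 CPM in the control libraries (log2 fold change 0.22, SE 0.045; edgeR adjusted p = 5.79e-05). CPM, the count of a gene relative to the total of its library, were scaled by TMM factors. For Kmt2e, which belongs to the same family by sequence but is not known to methylate histones by itself, the values were 106, 104 and 109 CPM in the thrombocytopenic libraries, against 89.3, 93.7 and 88.3 CPM in the control libraries (log2 fold change 0.23, SE 0.033; edgeR adjusted p = 5.53e-08). For both genes every thrombocytopenic library lay above every control library. Exons of Kmt2e share 9.31% of their bases with Srpk2 on the opposite strand in the GENCODE M21 annotation, and Srpk2 was lower, with a log2 fold change of -0.45. The sources used here do not say if reads were counted by strand, so overlapping genes are uncertain. The 7 others did not pass the test: Kmt2a, the founder of the MLL family, Kmt2b, Kmt2d, the partner enzyme of Kmt2c at enhancers, Setd1a and Setd1b, the catalytic subunits of the SET1 complexes, and the monomethyltransferase gene Setd7 and Smyd3. Their log2 fold changes ran from -0.10 in Setd7 to 0.045 in Kmt2b. Setd1a shares 51.8% of its exon bases with Gm49388 on the same strand, which had 0 CPM in every library. Groups overlapped in each of these 7 except Setd7, which was at 9.19, 9.05 and 8.05 CPM in the thrombocytopenic libraries, against 9.32, 9.55 and 9.23 CPM in the control libraries (edgeR adjusted p = 0.356).

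Among the 6 genes of H3K9 methyltransferases 2 fell, none rose, and all 6 fold changes were negative, with a median of -0.11. Negative fold changes were also found in 6262 of all 12488 genes tested. The called share was 33.3%, against 45.1% of all genes tested (22.7% lower). Ehmt2, also known as G9a, an enzyme that dimethylates H3K9, had 133, 124 and 133 CPM in the thrombocytopenic libraries, against 142, 148 and 138 CPM in the control libraries (log2 fold change -0.13, SE 0.032; edgeR adjusted p = 8.76e-04). Suv39h1, which trimethylates H3K9 in heterochromatin, had 23.1, 20.9 and 22.4 CPM in the thrombocytopenic libraries, against 25.8, 23.9 and 24.6 CPM in the control libraries (log2 fold change -0.15, SE 0.056; edgeR adjusted p = 0.0212). In both genes all thrombocytopenic libraries lay below all control libraries. Suv39h1 did not pass without thrombocytopenic replicate 2 (edgeR adjusted p = 0.11), without control replicate 1 (0.094) or with DESeq2 (0.0674).

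The remaining 4 H3K9 writers did not pass. Setdb2 had 87.3, 86.9 and 85.8 CPM in the thrombocytopenic libraries, against 93.6, 87.9 and 93.5 CPM in the control libraries (log2 fold change -0.078, SE 0.034; edgeR adjusted p = 0.058), and Setdb1, which acts with zinc finger repressors through Trim28, had 42.9, 42.7 and 43.7 CPM in the thrombocytopenic libraries, against 46.1, 46.1 and 45.3 CPM in the control libraries (log2 fold change -0.088, SE 0.042; edgeR adjusted p = 0.0861). Both had separate groups and neither passed the test. Setdb2 was called lower without control replicate 2 (adjusted p = 0.0122), with upper quartile scaling (0.0122), with library totals (0.0415) and with a filter at 1 CPM in 3 libraries (0.0425). Setdb1 was called lower with upper quartile scaling (0.0271). Suv39h2, the paralog of Suv39h1, was the scarcest member per length, and its 1.34 to 2.25 CPM gave a log2 fold change of -0.36 with an SE of 0.20 (edgeR adjusted p = 0.14). Ehmt1, the partner of Ehmt2, was at -0.039 and did not pass.

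The complex PRC2 trimethylates H3K27 through Ezh2 or Ezh1, with Eed and Suz12 as core subunits, and Ezh2 is typical of dividing cells while Ezh1 prevails in resting ones. Within this complex Eed and Ezh1 rose, and Ezh2 and Suz12 did not pass. The called share was 50% of 4 genes, against 45.1% of all genes tested (22.4% higher). Eed, which binds the trimethylated mark and stimulates the enzyme, had 52.5, 50.2 and 50.6 CPM in the thrombocytopenic libraries, against 40.6, 42.98 and 43.5 CPM in the control libraries (log2 fold change 0.27, SE 0.043; edgeR adjusted p = 4.40e-07). Ezh1 had 51.96, 51.6 and 53.8 CPM in the thrombocytopenic libraries, against 49.5, 46.7 and 47.2 CPM in the control libraries (log2 fold change 0.14, SE 0.041; edgeR adjusted p = 0.00508). All thrombocytopenic libraries lay above all control libraries in both. Ezh2 had 20.2, 19.6 and 19.9 CPM in the thrombocytopenic libraries, against 19.2, 20.2 and 20.1 CPM in the control libraries (log2 fold change 0.0018, SE 0.058; edgeR adjusted p = 0.984), and Suz12 had 98.3, 96.05 and 98.6 CPM in the thrombocytopenic libraries, against 97.2, 93.5 and 94.4 CPM in the control libraries (log2 fold change 0.041, SE 0.033; edgeR adjusted p = 0.329). The groups overlapped in Ezh2 and in Suz12. The log2 ratio of Ezh1 to Ezh2 counts was 1.36, 1.40 and 1.44 in thrombocytopenic libraries, against 1.37, 1.21 and 1.23 in control libraries. These ranges overlapped, and control replicate 1 lay between the first and the second thrombocytopenic library; the ratio compares counts that are not per length.

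Promoters of these 4 genes are shown because subunits of 1 complex differed in their change. They come from RefSeq (build GRCm38.p6), run 5′ to 3′ from 250 bases before the start of the gene to 50 after it, and matched 37 of the 51 genes with 48 promoters. Capitals mark letters of 3 motifs searched on both strands: E2F (TTTCCCGC, TTTGGCGC, TTTCGCGC or TTTGCCGC), the cell cycle homology region CHR (TTTGAA) and the CCAAT box of NF-Y.

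Ezh1, chr11:101226414-101226713, minus strand: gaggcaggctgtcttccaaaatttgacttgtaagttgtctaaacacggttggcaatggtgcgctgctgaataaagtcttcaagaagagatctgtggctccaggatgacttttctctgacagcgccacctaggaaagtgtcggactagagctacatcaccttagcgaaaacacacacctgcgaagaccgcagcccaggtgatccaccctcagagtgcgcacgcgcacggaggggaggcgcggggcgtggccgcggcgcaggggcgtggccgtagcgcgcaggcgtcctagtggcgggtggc

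Ezh2, chr6:47594981-47595280, minus strand: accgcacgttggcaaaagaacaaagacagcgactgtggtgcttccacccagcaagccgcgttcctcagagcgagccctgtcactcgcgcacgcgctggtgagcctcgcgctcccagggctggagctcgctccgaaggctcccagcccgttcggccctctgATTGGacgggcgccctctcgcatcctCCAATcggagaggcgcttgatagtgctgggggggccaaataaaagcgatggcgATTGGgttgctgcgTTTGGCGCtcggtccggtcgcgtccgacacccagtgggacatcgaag

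Eed, chr7:89980927-89981226, minus strand: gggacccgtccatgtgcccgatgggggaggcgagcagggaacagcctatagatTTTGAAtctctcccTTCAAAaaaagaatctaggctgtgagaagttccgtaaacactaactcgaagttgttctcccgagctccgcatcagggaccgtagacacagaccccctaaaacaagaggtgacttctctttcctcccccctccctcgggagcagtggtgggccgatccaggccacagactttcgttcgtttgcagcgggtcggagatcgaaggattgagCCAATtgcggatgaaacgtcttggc

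Suz12, chr11:79992856-79993155, plus strand: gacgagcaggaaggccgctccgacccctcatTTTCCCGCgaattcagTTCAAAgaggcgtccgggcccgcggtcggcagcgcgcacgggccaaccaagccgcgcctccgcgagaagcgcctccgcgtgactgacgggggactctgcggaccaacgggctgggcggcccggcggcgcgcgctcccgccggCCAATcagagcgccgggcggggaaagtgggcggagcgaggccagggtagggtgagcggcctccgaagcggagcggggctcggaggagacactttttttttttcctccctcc

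Ezh2 held 1 E2F match and 3 CCAAT boxes, and Suz12 held 1 match of each motif. The promoter of Eed held 2 CHR matches and 1 CCAAT box, and that of Ezh1 held none of these letters. E2F letters occurred in only 4 of the 48 promoters of members (8.33%), against 2.26% of 32851 promoters in the table. For CHR letters the shares were 8.33% and 17.9%, and for the CCAAT box 41.7% and 37.4%. A match is a description of the sequence and was not tested against the fold changes.

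Of 7 H3K36 methyltransferase genes Nsd2 and Nsd3 were lower, Nsd1 was higher and 4 did not pass. The called share was 42.9%, close to the 45.1% of all genes tested (22.4% higher and 22.7% lower). Nsd2 dimethylates H3K36 and had 41.7, 41.8 and 43.4 CPM in the thrombocytopenic libraries, against 64.9, 64.97 and 63.3 CPM in the control libraries (log2 fold change -0.61, SE 0.040; edgeR adjusted p = 6.78e-19). The highest thrombocytopenic library lay far below the lowest control library. Nsd3, the most abundant of the NSD genes by CPM, had 179, 181 and 188 CPM in the thrombocytopenic libraries, against 193, 196 and 203 CPM in the control libraries (log2 fold change -0.11, SE 0.029; edgeR adjusted p = 0.00132). Nsd1 had 149.95, 156 and 157 CPM in the thrombocytopenic libraries, against 142, 149.7 and 142 CPM in the control libraries (log2 fold change 0.093, SE 0.031; edgeR adjusted p = 0.0113). Libraries of Nsd3 and Nsd1 did not overlap between groups, but in Nsd1 thrombocytopenic replicate 1 was barely above control replicate 2. The call of Nsd1 was lost without thrombocytopenic replicate 3 (adjusted p = 0.0572), control replicate 1 (0.0661) or control replicate 3 (0.0882) and with upper quartile scaling (0.0655).

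Setd2, the enzyme that trimethylates H3K36 in transcribed genes, was at 87.98 ± 0.488 CPM in thrombocytopenic and 87.2 ± 2.96 CPM in control libraries (SD, n = 3; log2 fold change 0.010, SE 0.034; edgeR adjusted p = 0.843). Setd5, of the same domain family, was at 0.026 on the log2 scale, Smyd2 at 0.042 and Ash1l, a dimethyltransferase, at 0.085, and none of these passed. Ash1l was called higher without control replicate 2 (edgeR adjusted p = 0.0151). Dot1l, the enzyme of H3K79, had 120.5, 129.98 and 121 CPM in the thrombocytopenic libraries, against 116, 120.3 and 121 CPM in the control libraries (log2 fold change 0.056, SE 0.033; edgeR adjusted p = 0.167). Its groups overlapped.

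Kmt5a had the highest level per length of the 51 genes and the second largest rise, and Kmt5b rose too. The called share of the 3 H4K20 writers was 66.7%, against 45.1% of all genes tested (22.4% higher). Kmt5a monomethylates H4K20 and is needed for orderly cell division, while Kmt5b and Kmt5c add further methyl groups. Kmt5a had 339.8, 339 and 340.2 CPM in the thrombocytopenic libraries, against 269, 273 and 271 CPM in the control libraries (log2 fold change 0.32, SE 0.026; edgeR adjusted p = 1.50e-15). Libraries of a group were nearly alike and the groups far apart. Kmt5b had 70.8, 74.00 and 74.9 CPM in the thrombocytopenic libraries, against 65.9, 61.8 and 63.03 CPM in the control libraries (log2 fold change 0.21, SE 0.038; edgeR adjusted p = 8.21e-06), again with no overlap. Kmt5c had 9.05, 10.3 and 8.78 CPM in the thrombocytopenic libraries, against 11.05, 10.2 and 10.3 CPM in the control libraries and did not pass (log2 fold change -0.17, SE 0.082; edgeR adjusted p = 0.0887); leaving out thrombocytopenic replicate 2 made it a lower call (adjusted p = 0.026), as did upper quartile scaling (0.0497). The promoter of Kmt5a is shown because its RNA was the most abundant per length. Of 3 starts in RefSeq (GRCm38.p6) the most upstream is given, and it held 4 CCAAT boxes, in capitals, and no E2F or CHR letters. The other starts held 1 and 2 CCAAT boxes, and which start these cells use was not tested.

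Kmt5a, chr5:124439680-124439979, plus strand: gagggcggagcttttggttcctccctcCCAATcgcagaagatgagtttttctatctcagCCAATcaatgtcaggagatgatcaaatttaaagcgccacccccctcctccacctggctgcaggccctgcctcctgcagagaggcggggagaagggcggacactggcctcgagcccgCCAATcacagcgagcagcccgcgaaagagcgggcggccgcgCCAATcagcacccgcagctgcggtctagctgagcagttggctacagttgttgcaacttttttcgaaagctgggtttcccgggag

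Arginine methyltransferase genes did not pass. Prmt1, the main source of asymmetric dimethylarginine, had 89.5, 89.9 and 84.02 CPM in the thrombocytopenic libraries, against 88.3, 80.96 and 81.4 CPM in the control libraries (log2 fold change 0.074, SE 0.037; edgeR adjusted p = 0.098), with overlapping groups. It passed as higher on leaving out thrombocytopenic replicate 3 (adjusted p = 0.0309) or control replicate 1 (0.0213). Prmt5, which makes symmetric dimethylarginine, was at 0.010 on the log2 scale, and Carm1, a coactivator that methylates histone H3, at -0.040. Carm1 shares 21.1% of its exon bases with Yipf2 on the opposite strand.

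**Figure D2:**
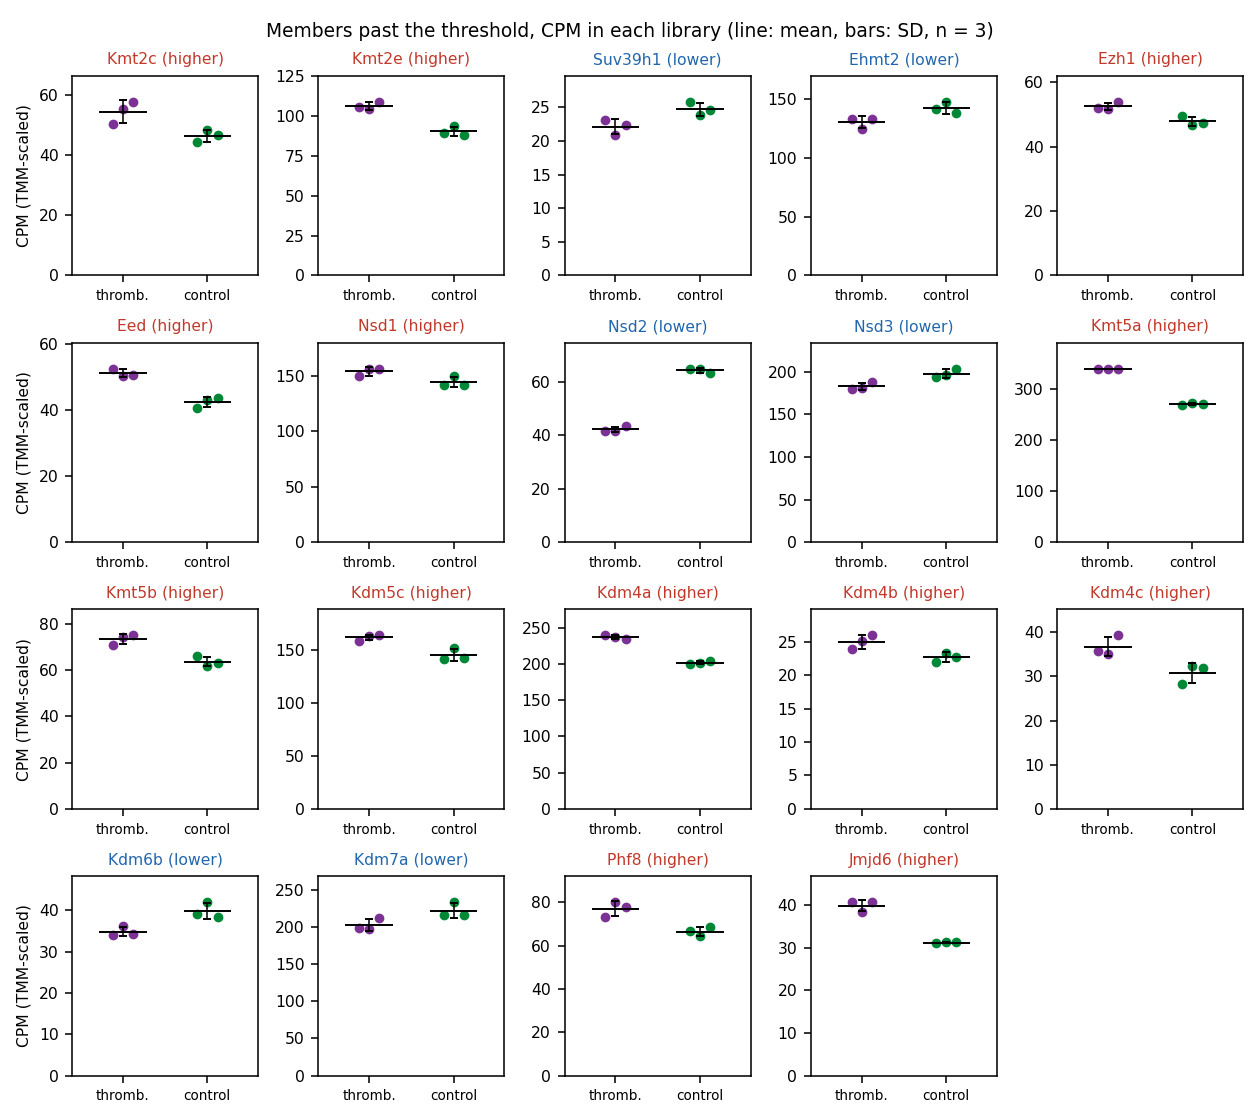
CPM (TMM-scaled, y axis from 0) of the 19 called genes in each library, thrombocytopenic left of control; points are libraries, lines are means and bars are SD (n = 3). In every panel the groups do not overlap, and relative to the level the separation is widest for Nsd2. The genes shown were picked by the test on these same libraries, and groups did not overlap in 51.3% of all genes tested.

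Erasers moved in 8 of 18 cases, with 6 higher and 2 lower, which is 44.4%, against 33.3% of writers and 45.1% of all genes tested; the difference between erasers and writers was not tested. The 3 KDM4 genes, whose products remove di- and trimethylation of H3K9 and H3K36, were called higher, Kdm4b only narrowly. Of all genes tested 22.4% were called higher. Kdm4a had 239, 237 and 235 CPM in the thrombocytopenic libraries, against 200.1, 202 and 204 CPM in the control libraries (log2 fold change 0.23, SE 0.028; edgeR adjusted p = 3.75e-10). Kdm4c had 35.9, 35.1 and 39.3 CPM in the thrombocytopenic libraries, against 28.2, 32.3 and 31.99 CPM in the control libraries (log2 fold change 0.25, SE 0.052; edgeR adjusted p = 7.97e-05). Libraries were separate in both, by a wide margin in Kdm4a and a narrow one in Kdm4c. Kdm4b had 23.9, 25.1 and 25.9 CPM in the thrombocytopenic libraries, against 22.01, 23.4 and 22.8 CPM in the control libraries (log2 fold change 0.13, SE 0.055; edgeR adjusted p = 0.0437). Kdm4b lay close to the threshold, and its call was lost in 9 of 15 alternatives. Without thrombocytopenic replicate 2 or 3 its adjusted p was 0.0756 and 0.194. Without control replicate 1, 2 or 3 it was 0.148, 0.0504 and 0.0935. With DESeq2 it was 0.109, with upper quartile scaling 0.106, with library totals 0.0545 and without a filter on low counts 0.0751.

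Of the H3K27 demethylase genes Kdm6b fell and Kdm6a did not pass, a called share of 50%, against 45.1% of all genes tested (22.7% lower). Kdm6b had 34.1, 36.1 and 34.2 CPM in the thrombocytopenic libraries, against 39.2, 41.98 and 38.4 CPM in the control libraries (log2 fold change -0.20, SE 0.047; edgeR adjusted p = 3.61e-04), with every thrombocytopenic library below every control library. Kdm6a, its X-linked paralog, had 39.8, 38.2 and 38.6 CPM in the thrombocytopenic libraries, against 38.2, 36.95 and 36.2 CPM in the control libraries (log2 fold change 0.068, SE 0.045; edgeR adjusted p = 0.232). The log2 ratio of Kdm6b to Kdm6a counts was -0.22, -0.079 and -0.18 in thrombocytopenic libraries, against 0.037, 0.18 and 0.082 in control libraries. These values did not overlap (exact permutation over 3 against 3 libraries cannot go below p = 0.1).

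Of the 5 H3K4 demethylase genes Kdm5c alone passed the test, a called share of 20%, against 45.1% of all genes tested (22.4% higher). Kdm5c, an X-linked gene whose product removes di- and trimethylation, had 159, 163 and 163 CPM in the thrombocytopenic libraries, against 141, 151 and 142 CPM in the control libraries (log2 fold change 0.16, SE 0.031; edgeR adjusted p = 3.16e-05). The groups did not overlap. Kdm5a, at 91.9 ± 3.57 CPM in thrombocytopenic and 91.8 ± 2.05 CPM in control libraries (SD, n = 3), and Kdm5b, at 20.5 ± 0.808 CPM in thrombocytopenic and 20.6 ± 0.648 CPM in control libraries, had log2 fold changes of 0.0018 and -0.0095. Kdm1a, the flavin-dependent enzyme LSD1, had 62.9, 54.1 and 62.5 CPM in the thrombocytopenic libraries, against 65.2, 63.8 and 62.3 CPM in the control libraries (log2 fold change -0.088, SE 0.044; edgeR adjusted p = 0.105), with thrombocytopenic replicate 2 below the other libraries and replicates 1 and 3 among the control values. Leaving out thrombocytopenic replicate 1 made it a lower call (adjusted p = 0.0322), as did leaving out replicate 3 (0.0426) or scaling by the upper quartile (0.0356). Kdm1b, its paralog, had 11.8, 11.4 and 12.5 CPM in the thrombocytopenic libraries, against 12.3, 13.3 and 13.9 CPM in the control libraries (log2 fold change -0.15, SE 0.072; edgeR adjusted p = 0.0891) and was called lower without control replicate 1 (0.0458) and with upper quartile scaling (0.0465). Its exons share 9.19% of their bases with Dek on the opposite strand, which was lower, with a log2 fold change of -0.15.

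Kdm5c and Kdm6a have Y-linked homologs of similar sequence, and the counting could have divided reads between them. All 6 libraries carried Y-linked RNA and nearly no Xist, which had at most 3 counts in a library. Kdm5d, the Y homolog of Kdm5c, was at 28.3, 28.9 and 31.6 CPM in the thrombocytopenic libraries, against 29.00, 27.1 and 25.9 CPM in the control libraries and did not pass (log2 fold change 0.12, SE 0.054; edgeR adjusted p = 0.0684). Uty, the homolog of Kdm6a, was at 25.9, 27.4 and 25.5 CPM in the thrombocytopenic libraries, against 25.1, 25.5 and 25.1 CPM in the control libraries and did not pass either (log2 fold change 0.055, SE 0.053; edgeR adjusted p = 0.424). Kdm5d overlapped between groups. In Uty every thrombocytopenic library lay above every control library, but by less than the rounding to 25.5 CPM shows. Groups were separate in that direction in 25.2% of all genes tested. Ddx3y and Eif2s3y, Y-linked genes of other function, were higher, at 0.23 and 0.24 on the log2 scale (edgeR adjusted p = 1.61e-08 and 3.66e-08).

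Genes of the PHF8 family, JmjC enzymes that bind trimethylated H3K4 through a PHD finger, changed in both directions. Together with Jmjd6 the called share was 75% of 4 genes, against 45.1% of all genes tested (22.4% higher and 22.7% lower). Phf8, X-linked and active on H3K9 and H4K20, had 73.2, 80.1 and 77.9 CPM in the thrombocytopenic libraries, against 66.8, 64.3 and 68.4 CPM in the control libraries (log2 fold change 0.21, SE 0.038; edgeR adjusted p = 5.34e-06). Kdm7a, active on H3K9 and H3K27, had 199, 198 and 211 CPM in the thrombocytopenic libraries, against 216, 233 and 216 CPM in the control libraries (log2 fold change -0.13, SE 0.031; edgeR adjusted p = 4.24e-04). The groups were separate in both, with Phf8 higher and Kdm7a lower. Phf2 was at -0.037 and did not pass. Jmjd6, a JmjC protein described as an arginine demethylase and as a lysyl hydroxylase, had the largest rise of the 51 genes. Its values were 40.7, 38.4 and 40.7 CPM in the thrombocytopenic libraries, against 31.2, 31.3 and 31.3 CPM in the control libraries (log2 fold change 0.36, SE 0.047; edgeR adjusted p = 5.37e-09), and the control libraries were nearly identical. Its exons share 3.66% of their bases with Mettl23 on the opposite strand, which did not pass, with a log2 fold change of 0.075. The Jmjd6 promoter (RefSeq, GRCm38.p6) is shown because the gene rose most, and its capitals mark CCAAT boxes; the first pair of matches overlaps, in opposite orientation, within the letters CCAATTGG.

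Jmjd6, chr11:116843400-116843699, minus strand: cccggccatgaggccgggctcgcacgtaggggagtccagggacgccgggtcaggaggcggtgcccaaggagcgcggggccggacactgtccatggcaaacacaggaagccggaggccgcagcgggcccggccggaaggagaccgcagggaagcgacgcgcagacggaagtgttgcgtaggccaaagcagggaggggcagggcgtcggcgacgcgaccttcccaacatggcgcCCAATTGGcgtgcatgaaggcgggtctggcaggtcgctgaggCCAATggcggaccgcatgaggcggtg

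Kdm2a and Kdm2b, whose products bind CpG islands and remove dimethylation of H3K36, did not pass, although the groups did not overlap in either. Kdm2a had 146, 148 and 153 CPM in the thrombocytopenic libraries, against 142, 143 and 144 CPM in the control libraries (log2 fold change 0.058, SE 0.030; edgeR adjusted p = 0.111). Kdm2b had 5.73, 6.20 and 6.09 CPM in the thrombocytopenic libraries, against 7.07, 6.996 and 6.34 CPM in the control libraries (log2 fold change -0.18, SE 0.098; edgeR adjusted p = 0.131). Their signs were opposite. Kdm3a and Kdm3b, H3K9 demethylase genes, were at 0.030 and 0.051 with overlapping groups.

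Levels between genes were compared as CPM per kilobase of exon, with exon lengths from GENCODE M21, which may not be the annotation behind the counts. Kmt5a led at 64.0 in thrombocytopenic and 51.1 in control libraries, followed by Kdm4a at 41.0 and 34.9 and Ehmt2 at 23.8 and 26.0. Prmt1 stood next at 25.6 and 24.4, and the order of Ehmt2 and Prmt1 differed between the groups. Setdb2, Kdm7a, Kdm5c and Suz12 followed, Suz12 at 19.7 and 19.2. The scarcest per length were Suv39h2, Smyd3, Kdm2b and Setd7, all under 1. In CPM, not per length, the members' mean over all libraries had a median of 54.4, against 20.02 for all genes tested.

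**Figure D3:**
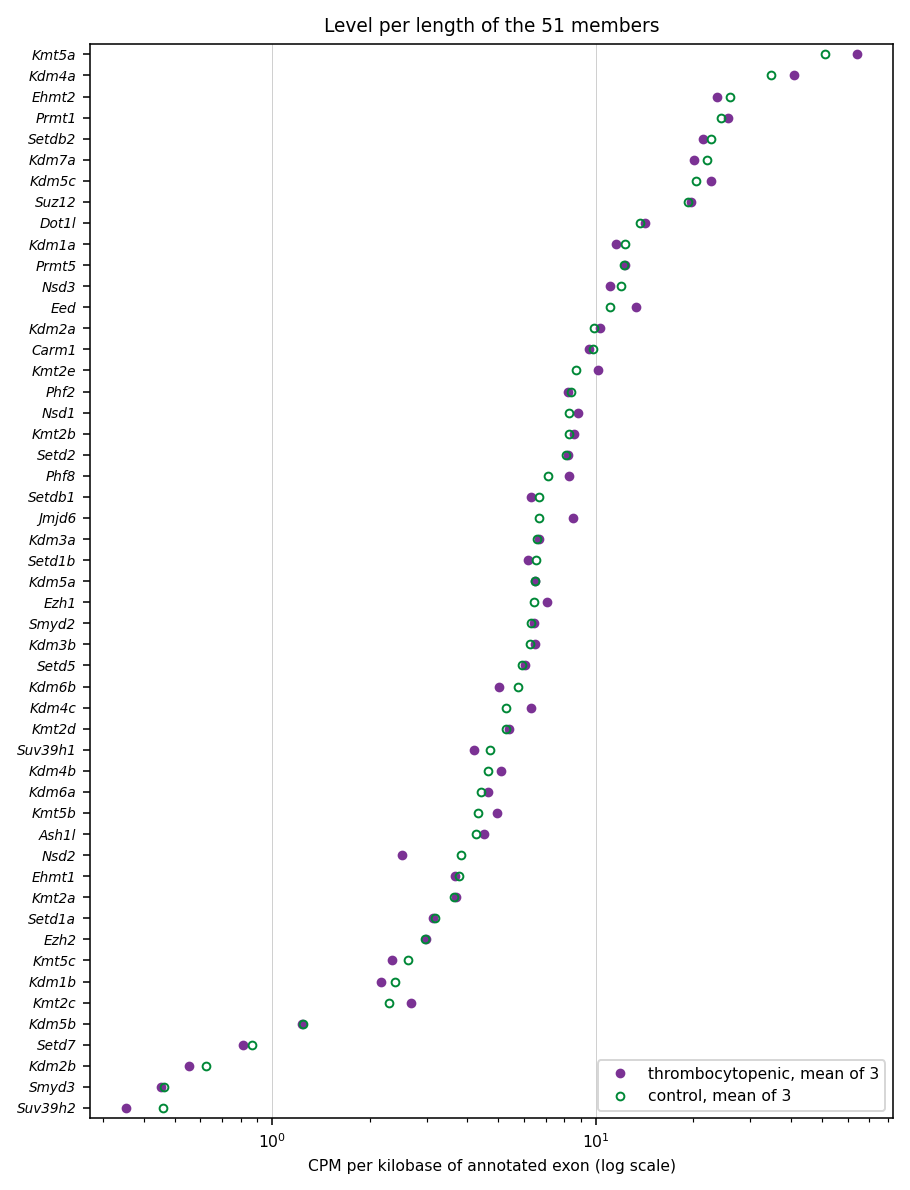
Level of the 51 genes as CPM per kilobase of annotated exon (log scale, x axis), means of 3 thrombocytopenic (filled) and 3 control (open) libraries, in the order of the control level. Levels span from under 1 in Suv39h2 to 64.0 in Kmt5a, and most paired points lie close together.

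Cell cycle genes fell in 27 of 31 cases (87.1%) with none higher, against 22.7% lower and 22.4% higher among all genes tested, at a median log2 fold change of -0.53, and their summed level was 957 to 986 CPM in thrombocytopenic and 1277 to 1299 CPM in control libraries. Top2a was at -0.55, Mcm6 at -0.47, Bub1b at -0.79 and Ccna2 at -0.62. Ezh2 and Kmt5a, which are known to vary with cell division, had log2 fold changes of 0.0018, not past the test, and 0.32, a rise. Dnmt1, which is not a member and maintains methylation of replicating DNA, was at -0.50. These genes are examples and not a full set of genes that vary with division. The part of cell division in the change of Nsd2 or any other member was not tested.

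Lists of genes whose products work with these enzymes were called in 23.1% to 58.3% of tested genes, against 37.3% of members and 45.1% of all genes tested. Of 12 tested partners of the H3K4 complexes COMPASS 5 were higher and 1 lower (median log2 fold change 0.021), with Ncoa6, a subunit of the Kmt2c and Kmt2d complexes, at 0.28, Hcfc1 at 0.17, Men1, which binds Kmt2a and Kmt2b, at 0.27 and Psip1 at -0.20. Of 8 PRC2 partners 1 was higher, Jarid2 (0.086), and 2 lower, Aebp2 (-0.14) and Phf19 (-0.36). Genes of PRC1, the other Polycomb complex, and its CBX readers of H3K27 methylation were higher in 2 of 13, Bmi1 (0.23) and Pcgf3 (0.13), and lower in 1, Pcgf5 (-0.35). HP1 proteins and other partners of H3K9 methylation were higher in 3 of 12 and lower in 4. Among them Tasor (0.30) and Mphosph8 (0.21), subunits of the silencing complex HUSH, rose, and Cbx5, which codes for HP1 alpha, fell (-0.24), as did Daxx (-0.11). Of 4 DOT1L partners Mllt6 (-0.12) and Mllt3 (-0.27) were lower. These calls are by the same edgeR test over all genes.

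Related enzymes outside the 51 changed in both directions. Among 13 tested JmjC genes and partners of Kdm1a, 3 were higher and 1 lower, which is 30.8%, against 45.1% of all genes tested. Jmjd1c, a JmjC gene related to Kdm3a and Kdm3b, had 31.6, 29.5 and 31.2 CPM in the thrombocytopenic libraries, against 49.4, 53.4 and 50.9 CPM in the control libraries (log2 fold change -0.74, SE 0.046; edgeR adjusted p = 4.38e-20), with groups far apart and a fold larger than that of Nsd2. Gfi1, a repressor that recruits Kdm1a, was at 0.58, Hdac2 at 0.24 and Riox2 at 0.19. Of 13 other SET, SMYD, PRDM and PRMT genes Prmt2 (0.23) and Setd3 (0.12) were higher and Prmt9 (-0.43) lower. The called share was 23.1%, against the same 45.1%.

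DNA methylation enzymes were called in 4 of 5 tested genes, 1 higher and 3 lower, against 45.1% of all genes tested (22.4% higher and 22.7% lower). Tet2, which oxidizes methylated cytosine with the same cofactors as JmjC enzymes, had 266, 278 and 278 CPM in the thrombocytopenic libraries, against 186, 189 and 185 CPM in the control libraries (log2 fold change 0.55, SE 0.028; edgeR adjusted p = 1.74e-23). Dnmt1, the maintenance methyltransferase of replicating DNA, fell by 0.50 on the log2 scale, Tet3 by 0.43 and Dnmt3a by 0.36. Of 17 genes that supply S-adenosylmethionine and 2-oxoglutarate 2 were higher and 4 lower, which is 35.3%, against 45.1% of all genes tested. Idh1, which makes cytosolic 2-oxoglutarate, was at 122 ± 1.73 CPM in thrombocytopenic and 90.5 ± 0.319 CPM in control libraries (SD, n = 3; log2 fold change 0.44, SE 0.032; edgeR adjusted p = 2.46e-17), and Mat2a, which makes S-adenosylmethionine, was at 0.12. Shmt2, a serine hydroxymethyltransferase gene, was at -0.17.

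**Figure D4:**
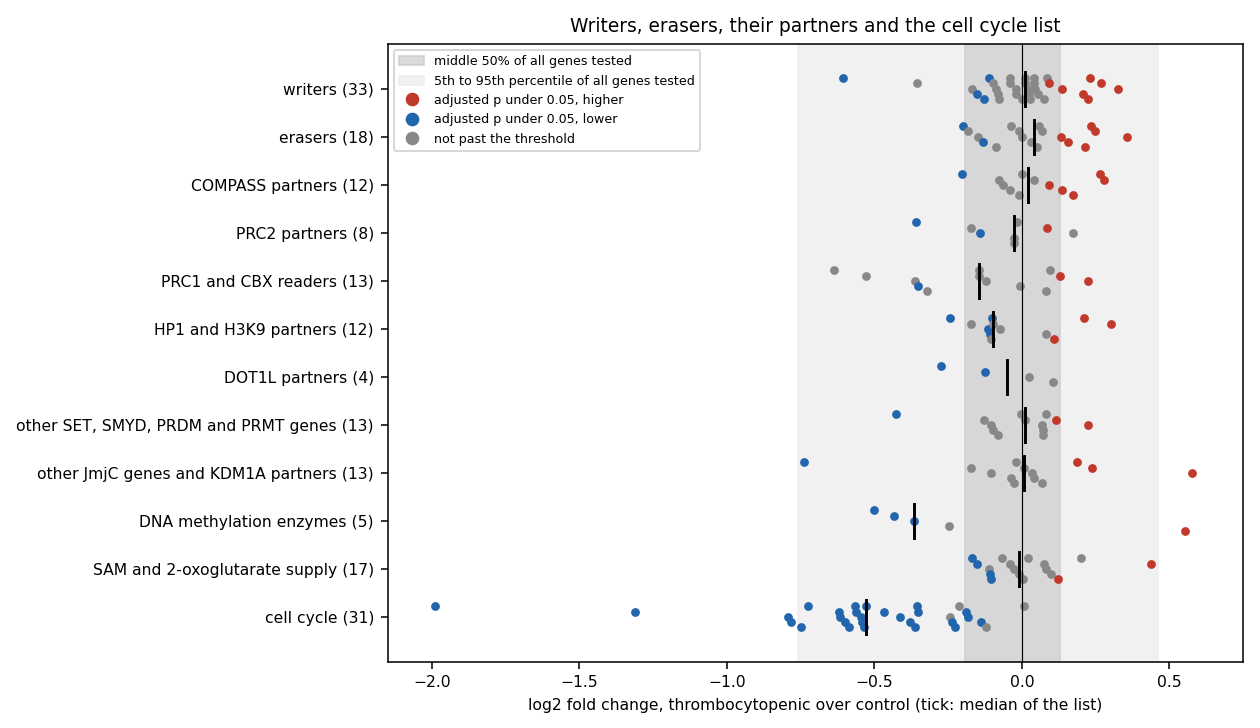
Log2 fold change (thrombocytopenic over control, x axis) of tested genes in each list (number tested in brackets), with the list median as a tick and the spread of all 12488 genes tested as grey bands. Writers and erasers lie mostly within the middle of all genes, while the cell cycle list has its median at -0.53.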

How the data were processed

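The authors deposited raw counts per gene for 6 libraries, as whole numbers with no header. The labels' protocols name oligo-dT purification and a dUTP-based stranded kit. The submitters' processing notes name STAR 2.7.9a, Salmon 1.5.2, fastp 0.23.1 and featureCounts of Subread 2.0.1. The sources used here do not give their roles, the genome build, the annotation or the strand setting. Groups and replicate numbers come from the titles. The members, lists and tests were chosen with earlier results of these data known.

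Counts were analysed in R 4.3.3 with edgeR 4.0.16: a low-count filter (filterByExpr, at 10 counts a library and 15 in total), TMM scaling (factors of 0.994 to 1.00), a robust quasi-likelihood fit with group as the only term, two-sided tests, and Benjamini-Hochberg adjustment over all 12488 genes tested at 0.05. SE was taken as the size of the log2 fold change over the square root of F. The common biological coefficient of variation was 2.68%. Every called member and the 4 uncalled ones nearest to the threshold have values of all libraries; other members shown that way (paralogs, subunits and genes whose call moved) were chosen after their values were seen. Lists are described by counts and medians, naming up to 4 called genes of smallest p; 1 gene that this rule names is not reported here. The steps were tested on simulated data. Alternatives used other scalings, limma 3.58.1 (voom), DESeq2 1.42.0, other filters and thresholds, a replicate block, and 1 library left out. Promoter letters come from RefSeq and exon lengths and overlaps from GENCODE M21. Protein sequences were not used here.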

Additional observations from a re-analysis of the deposited data

How the results depend on the processing

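The 13 higher and 6 lower members numbered 11 to 13 and 6 to 7 when 1 library was left out, and 12 to 13 and 5 to 7 with RLE size factors, library totals, DESeq2, limma-voom, no robust option and other filters. An adjusted p under 0.01 left 11 and 5. Upper quartile scaling gave 11 higher and 11 lower members. With a replicate block the counts were 13 and 6, among 5398 genes called in place of 5626. Deviations from the group means correlated at -0.038, -0.089 and -0.013 in same-numbered libraries, and at -0.059 to 0.088 in other pairs. The sources used here do not say whether same-numbered libraries were paired. These correlations cannot decide it, because a pairing that moved few genes would not show. A fold of at least 1.5 left 0 higher and 1 lower member (Nsd2), and 1203 genes in all, 350 higher and 853 lower. No called member changed sign under any alternative run. Members near 0 did. Upper quartile scaling gave -0.0039 for Kmt2a, -0.0013 for Kmt2d, -0.022 for Ezh2, -0.014 for Setd2, -0.014 for Prmt5 and -0.022 for Kdm5a. Library totals gave -0.0035 for Ezh2 and -0.0035 for Kdm5a, and a filter at 1 CPM in 3 libraries -0.0018 and -0.0017. With 1 library left out, the log2 fold change ran from -0.014 to 0.069 in Kmt2a, from -0.043 to 0.10 in Kmt2d, from -0.079 to 0.021 in Setd1a, from -0.082 to 0.029 in Smyd3, from -0.023 to 0.014 in Ezh2, from -0.016 to 0.031 in Setd2, from -0.0056 to 0.067 in Smyd2, from -0.046 to 0.042 in Prmt5, from -0.026 to 0.028 in Kdm5a, from -0.043 to 0.011 in Kdm5b, from -0.032 to 0.076 in Kdm3a and from -0.061 to 0.0068 in Phf2. The cause of these changes was not tested. Counts under about 2 CPM, as in Suv39h2, leave wide errors.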
